A study of Homo sapiens with 2 samples.

Results

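The locus on the short arm of chromosome 17 that holds HES7, PER1, VAMP2, TMEM107, BORCS6, AURKB, LINC00324, CTC1 and PFAS was examined for R-loop regions that differed between APOBEC3B-depleted and control melanoma cells. The members are these 9 neighbouring genes, of 62700 annotated genes, and they spanned 149900 bp of GRCh38 (chr17:8120592-8270491). They were chosen by their lines in the list analysed here, where this stretch held many of them, so the counts of regions below describe the choice and are not tested. A listed region was assigned to a gene when it overlapped the gene or when its midpoint lay within 3 kb of one of the gene's transcription start sites (TSSs) in GENCODE release 44. By this rule 17 of the 562 listed regions belonged to the 9 genes, and 7 of the 9 genes had a region, 6 of the 8 protein-coding ones and the lncRNA gene LINC00324, against 2.48% of protein-coding genes (498 of 20046) and 1.11% of lncRNA genes (209 of 18866) over the whole annotation.

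OMM2.3 is a cell line of uveal melanoma, in which the study profiled R-loops by CUT&Tag. The cells were transfected with V5-tagged RNASEH1_D210N, an RNase H1 that binds RNA:DNA hybrids but cannot cleave them, and a V5 antibody recruited the transposase that cuts and tags the DNA at those sites. The 2 groups were shCtrl cells with a control hairpin and shA3B cells with APOBEC3B knocked down, with 1 library each, and both carried the same tagged RNASEH1. The list names the places whose signal the authors found to differ from shCtrl to shA3B cells. It gives neither the direction nor the size of a difference, the depth is unknown, and there was no replicate check. No expression was measured here, so neither the identity of the cells nor the level of APOBEC3B was checked. Since RNASEH1 was supplied from a plasmid, the regions are sites where the tagged protein was recovered.

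An R-loop forms when a nascent RNA pairs with its DNA template and displaces the other strand. It is found at active promoters, near the ends of genes and over strongly transcribed RNA polymerase III genes, of which tRNA genes are the most numerous. PER1 is a repressor of the circadian clock, induced through E-boxes by CLOCK and BMAL1. HES7 is a repressor that drives the segmentation clock of the embryo. AURKB is the mitotic kinase of the chromosomal passenger complex, and CTC1 is a subunit of the CST complex that protects and helps to replicate telomeres. BORCS6 is a subunit of BORC, which positions lysosomes, VAMP2 is a SNARE protein of secretory vesicles and TMEM107 belongs to the ciliary transition zone. PFAS is an enzyme of purine synthesis and LINC00324 is a long noncoding RNA. A tRNA gene carries its promoter inside the transcribed part, as an A box and a B box bound by the factor TFIIIC. SNORD118 encodes U8, a small nucleolar RNA needed to process ribosomal RNA.

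Regions covered 6 starts or groups of starts of the 9 genes, and the DNA just upstream of 4 of them is shown. The 4 are those with an E-box or a CHR, and the covered starts of TMEM107 and LINC00324, with neither, are not shown. Each sequence is the 200 bases before the start of the gene or transcript group, from the GRCh38 reference on the minus strand, 5′ to 3′. Capitals mark the E-box CACGTG, the cell cycle homology region (CHR) TTTGAA and the CCAAT box, each on either strand, so that ATTGG is a CCAAT box on the other strand. The first sequence is chr17:8152436-8152635, the second chr17:8156507-8156706, the third chr17:8190181-8190380 and the last chr17:8210601-8210800.
PER1 canonical start: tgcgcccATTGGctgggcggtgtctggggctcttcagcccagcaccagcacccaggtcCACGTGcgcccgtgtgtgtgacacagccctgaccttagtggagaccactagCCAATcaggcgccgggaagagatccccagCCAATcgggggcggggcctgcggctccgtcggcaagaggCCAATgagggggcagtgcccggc
PER1 outermost start: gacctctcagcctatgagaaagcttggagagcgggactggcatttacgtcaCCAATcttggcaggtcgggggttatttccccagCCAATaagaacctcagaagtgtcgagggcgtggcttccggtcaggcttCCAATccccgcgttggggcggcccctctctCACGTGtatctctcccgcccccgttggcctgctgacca
BORCS6 start: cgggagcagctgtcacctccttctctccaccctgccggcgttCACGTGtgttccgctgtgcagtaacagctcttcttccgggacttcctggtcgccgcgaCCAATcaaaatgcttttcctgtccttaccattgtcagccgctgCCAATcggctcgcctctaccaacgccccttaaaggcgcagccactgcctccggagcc
AURKB start: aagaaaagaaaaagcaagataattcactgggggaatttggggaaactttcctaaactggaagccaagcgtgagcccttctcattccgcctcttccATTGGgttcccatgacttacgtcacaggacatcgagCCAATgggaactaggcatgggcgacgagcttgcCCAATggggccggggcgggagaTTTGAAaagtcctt

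The E-box was present at 3 of the 6 covered starts, of which 2 belong to PER1, and absent from AURKB, TMEM107 and LINC00324. AURKB held a CHR near the 3′ end of the window. Over 250 bases before and 50 after each start, the canonical PER1 start had 1 E-box, the outermost PER1 start 2 and the BORCS6 start 1, while 8.76% of 20033 protein-coding promoters held at least 1. The CHR was found once at AURKB and at no other of the 9 genes, against 11.5% of promoters. CCAAT boxes numbered 4 at the canonical PER1 start, 5 at the outermost PER1 start, 3 each at BORCS6 and AURKB and 1 at LINC00324, and 36.1% of promoters held at least 1. The CCAAT box was added to the search after these sequences had been seen. The cyclic AMP response element TGACGTCA occurred only at CTC1 (2.69% of promoters), whose start no region covered, and TATAAA occurred at none of the 9 (9.71%). The promoters of HES7, VAMP2, TMEM107 and PFAS held none of these 5 motifs in this window. A match is a description of the letters and says nothing of a bound factor.

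The tRNA genes of the locus are shown by 6 of 18, chosen to cover the regions next to HES7, PER1, BORCS6 and LINC00324. The sequences are from RefSeq positions on GRCh38, 5′ to 3′ on the strand of the tRNA, and capitals mark the B box, searched as GNTCNANNC on both strands. Their positions are chr17:8120314-8120395 (minus), chr17:8125746-8125816 (plus), chr17:8138881-8138962 (minus), chr17:8186358-8186429 (plus), chr17:8220869-8220940 (minus) and chr17:8222833-8222904 (minus), in the order given.
TRL-TAG1-1: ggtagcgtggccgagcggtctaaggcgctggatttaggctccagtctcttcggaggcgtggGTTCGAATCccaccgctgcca
TRG-GCC2-6: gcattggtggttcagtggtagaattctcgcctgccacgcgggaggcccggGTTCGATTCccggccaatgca
TRS-CGA1-1: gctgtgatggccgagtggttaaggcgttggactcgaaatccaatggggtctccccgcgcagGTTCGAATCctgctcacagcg
TRW-CCA3-3: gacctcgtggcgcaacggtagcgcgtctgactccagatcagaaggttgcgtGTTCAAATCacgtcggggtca
TRW-CCA1-1: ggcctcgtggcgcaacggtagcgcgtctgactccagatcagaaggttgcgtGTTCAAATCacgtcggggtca
TRP-CGG1-3: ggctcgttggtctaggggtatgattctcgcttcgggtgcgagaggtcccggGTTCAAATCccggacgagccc

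The 17 regions fell into 4 kinds. In 5 regions a TSS of a member was covered and no small RNA gene was present: 2 at PER1 and 1 each at TMEM107, AURKB and LINC00324. One region, at BORCS6, covered both the gene's TSS and tRNA genes. A further 7 overlapped a tRNA gene or SNORD118 and covered no TSS of a member, and 4 did neither, 2 inside HES7 and 2 inside TMEM107. With the midpoint alone as the criterion, 9 regions lay within 3 kb of a member's TSS without a small RNA gene, but only 5 of those had the midpoint within 1 kb, and these were the 5 that covered a TSS. All 8 regions with a small RNA gene held the whole of it. Counting small RNA genes within 500 bp of a region gave 10 regions in place of 8. The additions were chr17:8121087-8121364 in HES7 and chr17:8174029-8174476 in TMEM107, both among the 4 that did neither.

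**Figure D1:**
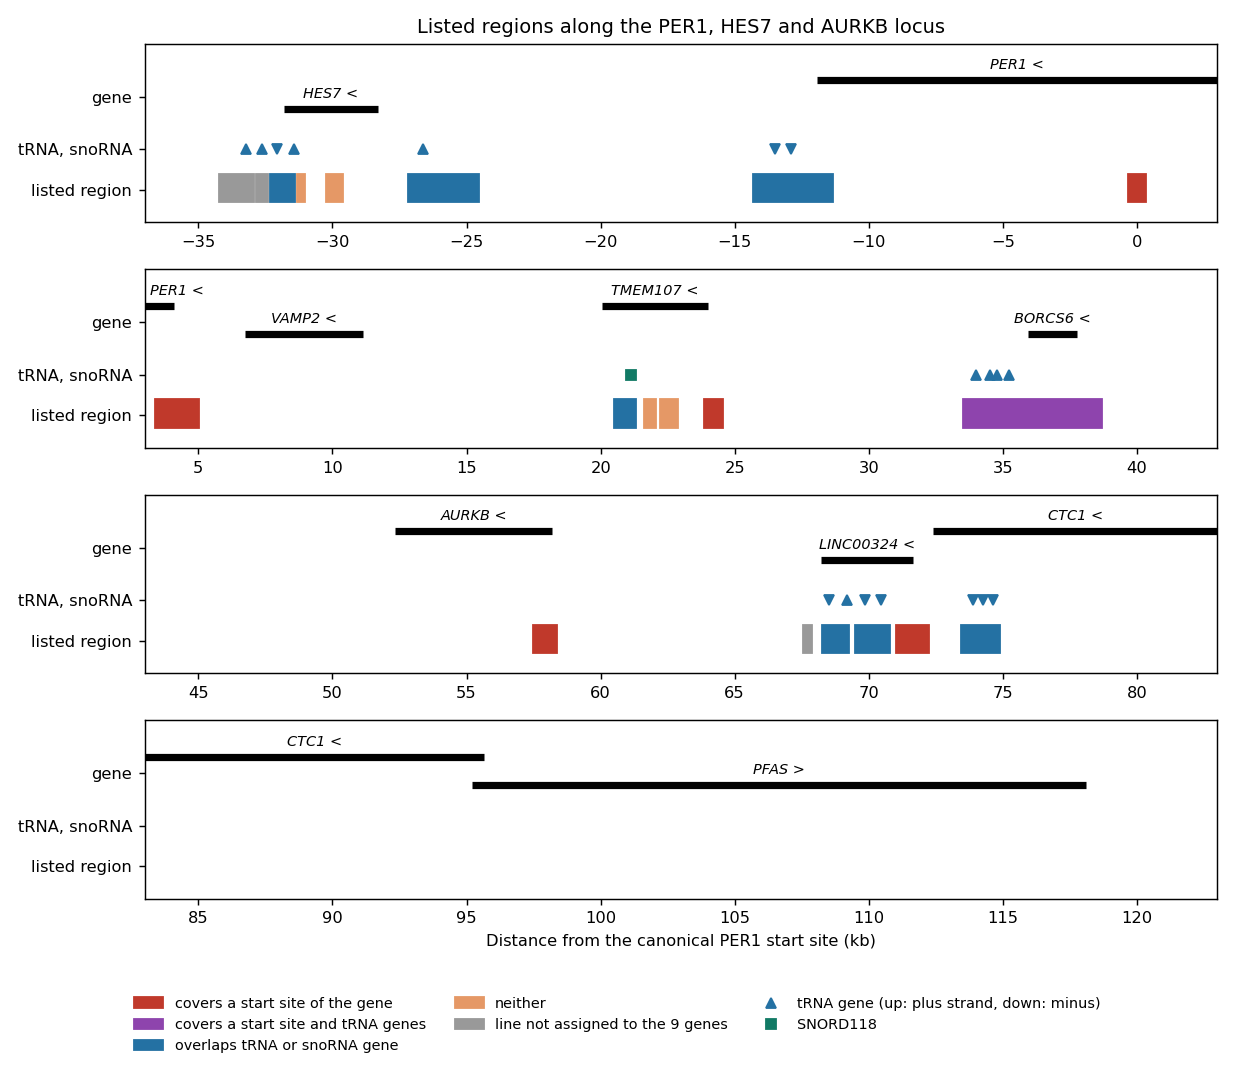
The locus in 4 stretches of 40 kb, by distance in kb from the canonical PER1 start; black bars are genes with an arrow for their strand, triangles are tRNA genes, the square is SNORD118 and coloured boxes are listed regions by kind. The regions are gathered between HES7 and the 3′ part of CTC1, and the last stretch, with the rest of CTC1 and PFAS, holds none.

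PER1 (chr17:8140472-8156506, minus strand, 19 annotated TSSs) had 3 regions, at its canonical start, at its outermost start and at its 3′ end. The region at the canonical start, chr17:8152081-8152756, was 676 bp wide with a GC content of 65.2%. Its midpoint lay 14 bp upstream of the TSS at position 8152404, and it covered 4 annotated TSSs. The region at the outermost start, chr17:8155784-8157446, was 1663 bp wide with a GC content of 57.9%, had its midpoint 109 bp upstream of the TSS at 8156506 and also covered 4 TSSs. Thus 8 of the 19 PER1 TSSs, in 2 separate clusters, lay inside listed regions, and the 200 bases printed above for both starts lay wholly within them.

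The 2 PER1 starts differed in strand composition. GC skew is the excess of G over C on the coding strand divided by their sum, taken over the 500 bp downstream of the TSS. It was -0.215 at the canonical start, a value that 2.68% of protein-coding genes fell below. At the outermost start it was 0.338, with 98.4% of protein-coding genes below it. The coding strand was thus C-rich after one of these covered starts and G-rich after the other. The region at the canonical start reached 323 bp downstream of the TSS, so it held only part of the 500 bp used for the skew. The canonical region also held 3 matches to a G-quadruplex motif (4 runs of at least 3 G with loops of 1 to 7 bases) on the plus strand, which is the template strand of PER1, and the outermost region none. An unnamed protein-coding gene, ENSG00000263620, runs through both PER1 starts and on into VAMP2 (chr17:8150816-8162975), so neither of these regions can be given to PER1 alone.

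The region at the 3′ end of PER1, chr17:8138091-8141072, was 2982 bp wide and covered the end of the gene, including 601 bp of untranslated sequence, together with TRS-CGA1-1 and TRT-AGT5-1 beyond it. Its midpoint was 2610 bp from the nearest PER1 TSS, at 8142191, which starts a short transcript near the 3′ end. By midpoint alone it would count as a PER1 promoter region, but it covered none of the gene's TSSs.

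HES7 (chr17:8120592-8124106, minus strand, 3 TSSs) had 4 regions and none over its start. The region nearest to the canonical TSS began 1095 bp upstream of it. That region, chr17:8125201-8127861, was 2661 bp wide with 56.8% GC and held TRG-GCC2-6 and the lncRNA gene ENSG00000288993. Its midpoint was 2425 bp from the TSS, so HES7 received it through the window and not through overlap. Inside the gene, chr17:8122140-8122789 (650 bp, 62.5% GC) had its midpoint 1620 bp downstream of a TSS and included 88 bp of coding sequence. The region chr17:8121087-8121364, the narrowest of the 17 at 278 bp, lay wholly in annotated untranslated sequence, 2859 bp from a TSS. The last, chr17:8120062-8121012 (951 bp, 50.9% GC), covered the end of the gene with 421 bp of untranslated sequence and held TRR-TCT2-1, within the HES7 transcript, and TRL-TAG1-1 just beyond it. The regions took up 38.4% of the HES7 span. Over 1 kb the uncovered start had 60.9% GC, above 48.1% of protein-coding genes, and its skew of 0.344 was above 98.5% of them.

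AURKB (chr17:8204733-8210600, minus strand) had 1 region, at its start. It was chr17:8209889-8210772, 884 bp wide with 60.3% GC. Its midpoint was 76 bp from the nearest TSS and it covered 10 of the gene's 13 TSSs. Of the 200 bases printed above, 172 lay within it, the CHR included. The skew downstream of the canonical AURKB TSS was -0.051, and 20.1% of protein-coding genes had a lower one. No tRNA or snoRNA gene lay in this region, and the nearest other listed region on either side was 9189 bp away or more.

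TMEM107 (chr17:8172457-8176399, minus strand, 8 TSSs) had 4 regions, which took up 53.3% of the gene. The region at its start, chr17:8176255-8176956 (702 bp), had the highest GC content of the 17, 65.5%, and covered 8 of 8 TSSs. It also reached the first bases of the divergent lncRNA gene ENSG00000266824, so it cannot be given to TMEM107 alone. The list gives no strand for any region. Downstream, chr17:8174601-8175275 (675 bp, 52% GC) and chr17:8174029-8174476 (448 bp, 48.4% GC) had midpoints 1378 bp and 2064 bp from a TSS. Both lay wholly in annotated exons of TMEM107 transcripts. The region chr17:8172882-8173716 (835 bp) had the lowest GC content of the 17, 41.4%, lay wholly in untranslated sequence of TMEM107 and contained SNORD118 (chr17:8173454-8173587, minus strand). The U8 gene was 221 bp from the region's midpoint. By the same rule SNORD118 had 3 regions, this one and the 2 named before it, so those 2 lay near both genes. Of 942 annotated snoRNA genes, 2 were overlapped by a listed region (0.212%), SNORD118 and SNORD3B-2, also on chromosome 17.

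BORCS6 (chr17:8188345-8190180, minus strand, 1 TSS) lay wholly within 1 region. That region, chr17:8185935-8191110, was 5176 bp wide, the widest of the whole list. It ran from 930 bp upstream of the BORCS6 TSS through the gene and beyond its end over TRI-AAT5-5, TRT-AGT1-1, TRS-GCT4-3 and TRW-CCA3-3, all on the opposite strand, and over MIR4521. Its GC content was 56.9%. The midpoint was 1658 bp from the TSS, downstream in the gene. One line thus joined a gene promoter and a group of 4 tRNA genes, and the list does not say which of them carried the difference.

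LINC00324 (chr17:8220624-8224043, minus strand, 1 TSS) had 4 regions, and 84.6% of its span lay in them. The region at its start, chr17:8223438-8224656 (1219 bp, 56.7% GC), had its midpoint 4 bp from the TSS. The next, chr17:8221902-8223201 (1300 bp), held TRD-GTC2-11 and TRP-CGG1-3. The third, chr17:8220669-8221657 (989 bp), held TRW-CCA1-1 and TRG-TCC3-1. All 4 of these tRNA genes lay within the span of LINC00324, and TRG-TCC3-1 alone among them lay outside its exons. Upstream of the start, chr17:8225838-8227288 (1451 bp, 48% GC) had its midpoint 2520 bp away and held TRT-AGT1-2, TRS-AGA2-6 and TRI-AAT4-1.

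This last region was also the only one at CTC1 (chr17:8224815-8248058, minus strand, 14 TSSs). It lay wholly in annotated untranslated sequence of CTC1, 20768 bp from the canonical TSS of that gene. CTC1 thus had a region at its 3′ end, with tRNA genes inside it, and none at its start. The list does not say whether CTC1 or the tRNA genes carried the difference. VAMP2 (chr17:8159149-8163546) and PFAS (chr17:8247618-8270491) had no region. The nearest was 1703 bp beyond the end of VAMP2, the region at the outermost PER1 start, and 17797 bp from PFAS. The VAMP2 promoter had the highest GC content of the 9, 73.5% over 1 kb, above that of 91.8% of protein-coding genes. PFAS had 55.4%, above 28.6% of them.

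**Figure D2:**
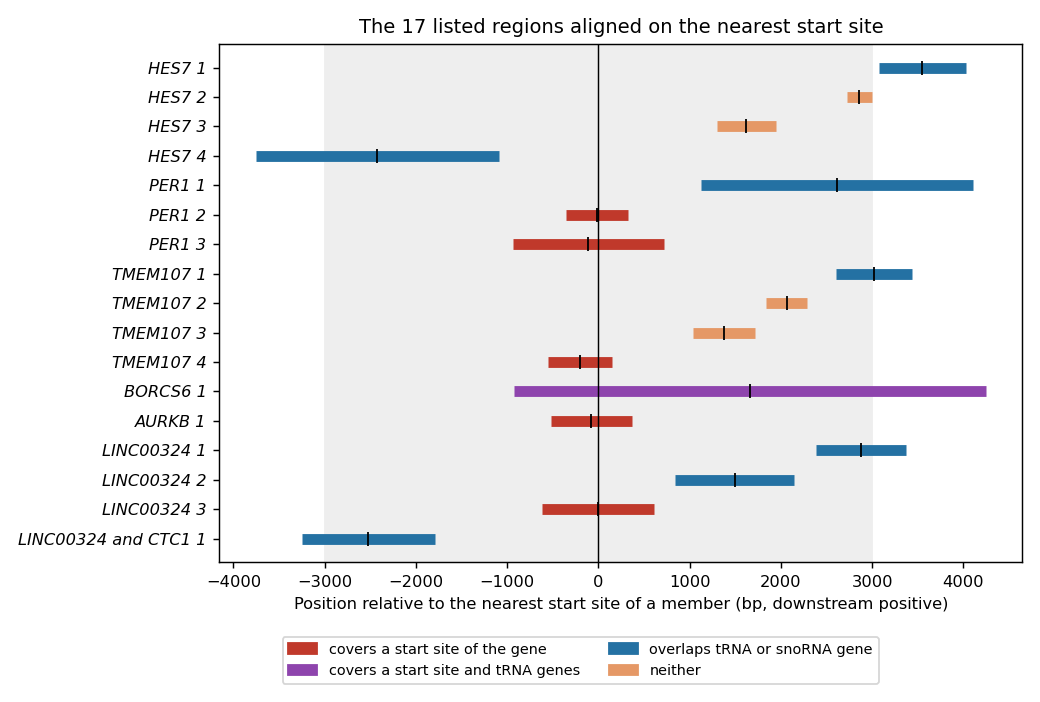
The 17 regions drawn to scale along the x axis, in bp from the nearest TSS of a member with downstream positive; the tick is the midpoint, the shading spans 3 kb on either side and colour gives the kind. The 5 regions that cover only a TSS are centred within 206 bp of it, while those with small RNA genes are centred 1492 to 3547 bp away.

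The window decided the assignment of 2 regions, those centred 2425 bp from HES7 and 2520 bp from LINC00324, the latter of which overlaps CTC1 in any case. Just outside it were the SNORD118 region, 3017 bp from a TMEM107 TSS, and the region at the end of HES7, 3547 bp from a HES7 TSS, and both were kept because they overlap the gene. The region chr17:8219962-8220275 (314 bp), 3925 bp from the LINC00324 TSS and just past the end of that gene, met neither criterion. Beyond HES7, chr17:8118167-8119474 and chr17:8119558-8119983 held TRK-TTT3-5 and TRQ-CTG1-5 and belonged to none of the 9 genes.

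Gene ends were covered as well as starts. Among the 7 members with a region, LINC00324 included, the canonical TSS of 5 lay inside one, 71.4%, next to 69.1% of the 498 protein-coding genes with a region. The gene end lay inside a region for HES7, PER1 and BORCS6, 3 of 7 or 42.9%, next to 17 of 498 or 3.41%. At these 3 ends the covering region held tRNA genes in each case. The ends of LINC00324 and CTC1 were 45 bp and 159 bp from a region. Since the locus was selected on these same lines, the shares are set side by side as a description.

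HES7 and TMEM107 had 4 regions each and PER1 had 3, whereas 470 of the 498 protein-coding genes had 1 and 23 had 2. The other genes with more than 2 were ALOXE3 with 4, next to HES7, and TRIM7 with 3. These counts depend on how lines are separated, as the 4 lines of TMEM107 lie 312, 124 and 979 bp apart. With lines within 1 kb merged, the 17 regions became 10, TMEM107 had 1, HES7 and LINC00324 had 2 each and PER1 had 3, while 485 protein-coding genes had 1, 12 had 2 and 1 had 3. By midpoint, 17 regions lay between the outermost ends of the 9 genes. They were 28.3% of the 60 lines on chromosome 17, in 0.18% of its length, at 11.3 lines per 100 kb against 0.0517 per 100 kb on the rest of the chromosome. These 17 include the region past the end of LINC00324 and leave out the one centred just beyond the end of HES7. Listed regions covered 15.3% of this stretch. On the far side of HES7 and ALOXE3 the next region was at CHD3 and NAA38, chr17:7884793-7885558, and on the PFAS side it was at RANGRF and SLC25A35, chr17:8288288-8289690.

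Windows of the same length were laid over the list without overlap, each starting at the midpoint of a region and the fullest first, which gave 393 windows. The window of this locus held 20, the most, and 9 of these regions had a tRNA gene. The next windows held 12 on chromosome 6, of which 10 had a tRNA gene, and 11 on chromosome 16, of which 7 did. Thus 11 regions without a tRNA gene lay in the window of this locus, and 2 and 4 in the next ones. These counts too depend on how lines are separated. The windows were not recounted with lines within 1 kb merged, so the differences between them may lie partly in how lines were split.

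**Figure D3:**
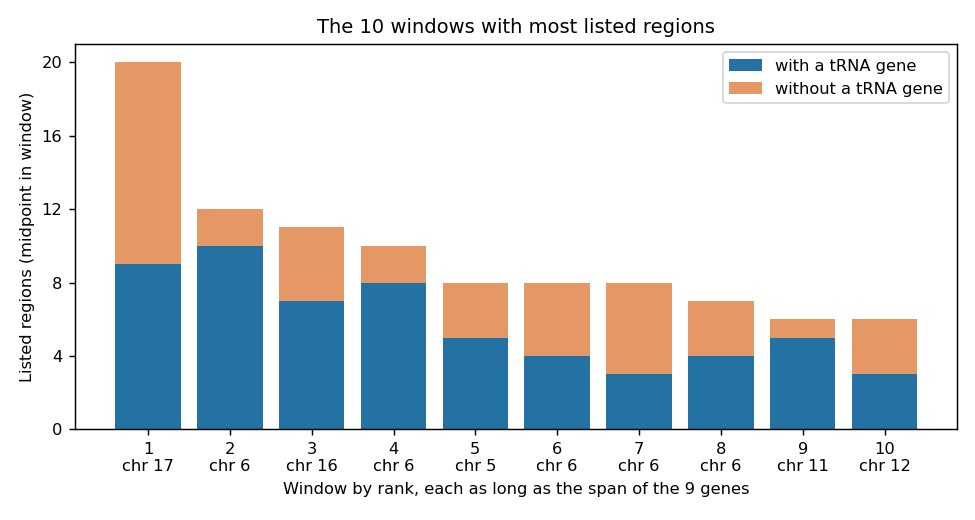
Number of listed regions with the midpoint in each of the 10 fullest windows, each 149900 bp long, by rank and chromosome, divided into regions with a tRNA gene (blue) and without (orange). The chromosome 17 window holds 20 regions and the others 12 or fewer, with each line counted as listed and none merged.

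All 18 tRNA genes that RefSeq places in this cluster (chr17:8119155-8227064) lay inside a listed region, against 35.4% of nuclear tRNA genes overall (157 of 443). Outside the locus 139 of 425 were overlapped, 32.7%. Other tRNA clusters of at least 10 genes, with gaps of at most 100 kb, had lower shares. Those on chromosomes 14 and 16 had 9 of 14 each and that on chromosome 5 had 9 of 17. On chromosome 6 the largest cluster had 1 of 43, and on chromosome 7 the cluster had 0 of 13. Together the other large clusters had 70 of 231, 30.3%.

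**Figure D4:**
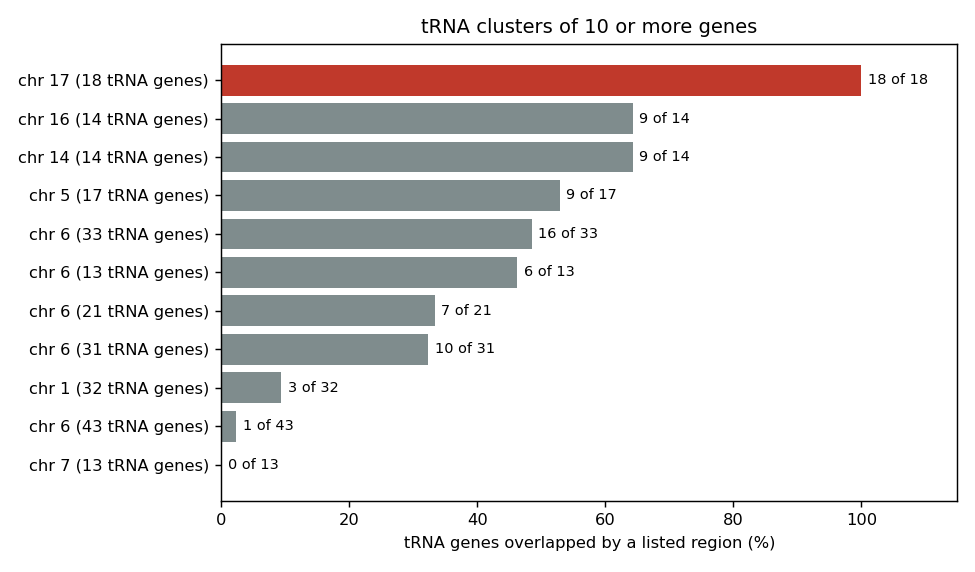
Share of tRNA genes overlapped by a listed region (x axis, percent) in each cluster of at least 10 genes, with the counts beside the bars. The chromosome 17 cluster, in red, has 18 of 18 and the others range from 0 of 13 to 9 of 14.

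The 18 genes lay in 9 regions, 16 of them in regions of the members, with 9 on the plus and 9 on the minus strand. They belonged to 14 anticodon families. The median distance from the middle of the gene to the midpoint of its region was 395.5 bp (range 17 to 2129 bp). It is taken over the 18 genes, many of which share a region, and does not measure how each region is centred. A run of at least 4 T, the stop signal of RNA polymerase III, followed within 30 bases for 17 of the 18, the exception being TRT-AGT5-1.

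Of the 18, 7 had a sequence found once among the RefSeq tRNA genes and 11 had at least 1 exact copy elsewhere. TRD-GTC2-11 had the most, as 1 of 11 identical genes, and TRW-CCA3-3 was 1 of 3. TRT-AGT1-1, in the BORCS6 region, and TRT-AGT1-2, in the CTC1 region, were identical over 74 bases. TRW-CCA3-3 of the BORCS6 region and TRW-CCA1-1 of LINC00324, both printed above, differed at 1 of 72 bases (A2G, counted from 1 at the 5′ end, TRW-CCA3-3 first). TRT-AGT1-1 differed from TRT-AGT5-1 of the PER1 end by T16C, and TRI-AAT5-5 from TRI-AAT4-1 by T60A. A read that lies wholly within one of several exact copies cannot be placed, whereas the regions extend into the sequence around each gene.

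The regions with and without small RNA genes had different median composition in the locus, as in the rest of the list. The 5 regions over a TSS alone had a median GC content of 60.3% (56.7 to 65.5) and a median width of 884 bp (676 to 1663). The 7 with small RNA genes alone had 50.9% (41.4 to 56.8) and 1300 bp (835 to 2982), so the ranges of GC content overlapped only from 56.7 to 56.8%. The 4 of neither kind were the narrowest, with a median of 549 bp (278 to 675) and 54.1% GC.

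Across the 17 regions the median GC content was 56.1% and the median width 951 bp, beside 60.5% and 1024 bp for the other 545 regions. This comparison mixes the kinds, as 8 of the 17 had a tRNA or snoRNA gene and 108 of the 545 did. Within regions with such a gene the medians were 52.5% here and 51.9% elsewhere. Within those without, they were 57.9% (9 regions) and 62.2% (437 regions). The median CpG observed/expected ratio was 0.631 in the 17 and 0.75 in the rest, and 8 of the 17 (47.1%) held a G-quadruplex motif next to 51.9% of the rest. With a tRNA or snoRNA gene the median ratio was 0.669 here and 0.703 elsewhere, and without one 0.573 and 0.767. G-quadruplex motifs were in 37.5% here and 29.6% elsewhere with such a gene, and in 55.6% and 57.4% without. No test was made of these differences.

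**Figure D5:**
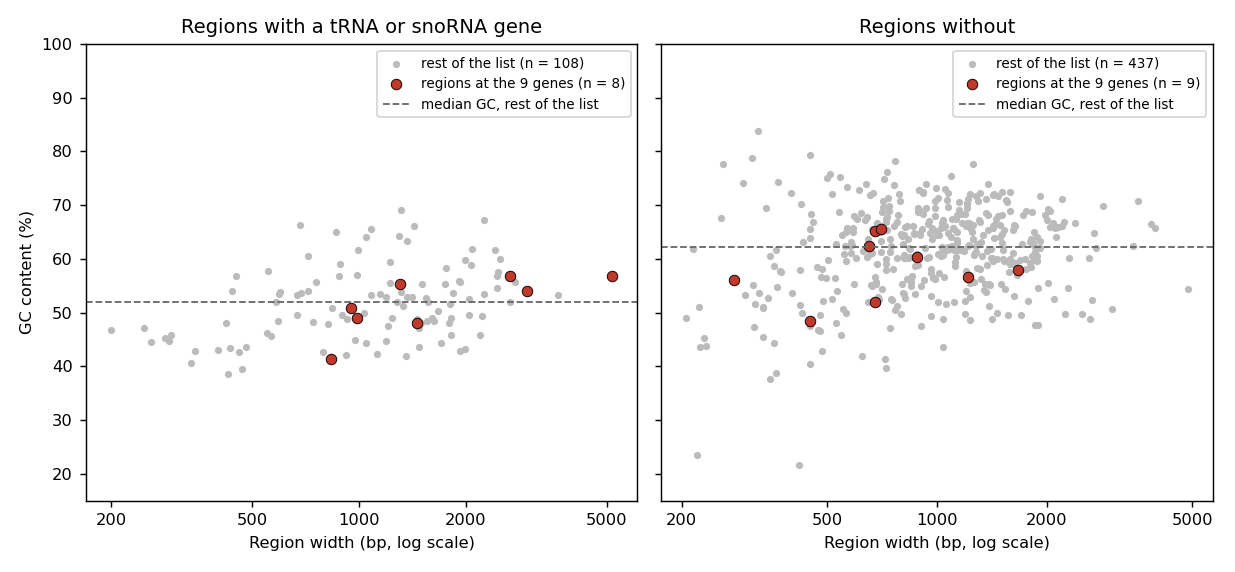
GC content (y axis, percent) against width (x axis, bp, log scale) of the listed regions that overlap a tRNA or snoRNA gene (left) and those that do not (right), with the 17 regions of the locus in red and the rest of the list in grey. The red points lie on both sides of the dashed median on the left (8 regions), and 6 of 9 lie below it on the right.

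The functional partners of the 9 genes lie elsewhere in the genome and are given here beside the 2.48% of all protein-coding genes that had a region. Among the circadian clock genes CSNK1E, a kinase that phosphorylates PER proteins, had a region over its TSS (chr22:38316674-38318777). The other PER and CRY genes, CLOCK and BMAL1 had none. Of 9 other BORC and lysosome positioning genes BORCS5 had a region (chr12:12356859-12357656), and of 15 other ciliary transition zone genes MKS1 did (chr17:58219291-58219713), both over a TSS. The regions at CSNK1E, BORCS5 and MKS1 also overlapped TPTEP2-CSNK1E, LOH12CR2 and LPO, in that order, so none can be given to the named gene alone.

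None of 17 other HES, HEY and Notch segmentation genes, 11 partners of AURKB, 11 other CST, telomerase and shelterin genes, 13 other SNARE genes or 10 other purine synthesis genes had a region. At 2.48% of protein-coding genes, lists of this size are too short for a count of 0 to set them apart.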

How the data were processed

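R-loop CUT&Tag was performed in 1 shCtrl and 1 shA3B library of OMM2.3 cells, grouped by sample title. Per the submitters' processing notes and the study's methods, the authors trimmed reads with cutadapt 4.1, aligned them to GRCh38 with Bowtie2 2.2.5, removed duplicates with Picard 2.27.3, filtered with SAMtools 1.15.1, called peaks with SEACR 1.3 and compared the libraries with edgeR. Thresholds and dispersion of that comparison are not given in the sources used here. A filter on mapping quality can lower the number of reads kept that lie wholly inside identical tRNA genes. No reads were examined here, so whether it did so is not known. The deposited list gives chromosome, start and end of 562 regions, with no count or score. The depth is unknown, so no counting error could be attached.

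Starts were converted to 1-based positions. Regions were joined to GENCODE release 44 and to RefSeq tRNA genes, and sequence was read from GRCh38, with Python 3.11.15, numpy 2.4.6 and pandas 2.3.3. Overlap functions were tested on simulated regions. With 1 library per group no test was made and no p-value computed. The members, gene lists and motifs were chosen with earlier results of these data known. All members, every tRNA and snoRNA gene of the locus and list genes with a region are named, except for 1 result that is not reported here. Alternatives were the promoter window and its anchor, 1 TSS per gene, gene overlap alone, the wider 50% of regions, merging within 1 kb, the definition of small RNA overlap and the extent of the locus.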

Additional observations from a re-analysis of the deposited data

How the results depend on the processing

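Of 41 values of 9 results recomputed under the alternatives, 31 changed by less than 1.5 times or less than the spread of the regions and 10 moved by more. A 1 kb window left 5 regions with the midpoint near a TSS and no small RNA gene, in place of 9 at 3 kb. The wider 50% of the list left 7 regions at the members in place of 17 and 2 such regions near a TSS. It left 5 regions with small RNA genes in place of 8 and 7 regions in the locus window in place of 17. Genes of the function lists with a region numbered 6 in place of 10. Merging lines within 1 kb gave 10 regions at the members and 3 such regions near a TSS. The median width was then 2822 bp in place of 951 bp. Counting TSSs within 1 kb and no gene bodies gave 6 genes of the function lists. These alternatives remove or join regions by construction. In the wider 50% of the list TMEM107 and AURKB had no region left.

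No paired analysis was possible because there was a single library on either side and the list gives no value per library. The list holds no direction and no depth, so the list does not tell in which library a given region was stronger. For a gene or start without a line, the list does not tell absence of R-loops from R-loops without a called difference. This holds for VAMP2, PFAS and the starts of HES7 and CTC1.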
